A study of Mus musculus with 2 samples.

Results

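MHC class II presentation was described through 10 listed genes of the 31053 in the deposited matrices: H2-Aa, H2-Ab1, H2-Eb1, Cd74, Ciita, H2-DMa, H2-DMb1, H2-DMb2, H2-Oa and H2-Ob. The list was given by name and uses no measured value, and all 10 genes had counts in both libraries. Their unique molecular identifiers (UMIs, 1 per captured molecule) were summed over the nuclei of each cell class in each library and divided by all UMIs of those nuclei, scaled to CPM (counts per 1000000 UMIs).

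The nuclei came from inguinal white adipose tissue (iWAT) of male C57BL/6 mice on a Western diet, taken without the lymph node and pooled over 3 mice per group. The question was how loss of the long noncoding RNA Lexis bears on the cells of this depot. The group labelled Lexis WT comprised littermate controls (Lexis-AdWT). In the group labelled Lexis KO (Lexis-AdKO), a floxed Lexis allele was deleted with Adipoq-cre, which acts in adipocytes, so the immune cells described here keep the allele by design. Diet, given for 4 weeks, and strain were shared by both groups. The sources used here give an age range for most mice of the work, but none for these mice in particular.

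MHC class II molecules display peptides from ingested proteins to CD4+ T cells. H2-Aa with H2-Ab1 form I-A, H2-Eb1 is the beta chain of I-E, and Cd74, the invariant chain, occupies the groove until the peptide is loaded. H2-DMa pairs with H2-DMb1 or H2-DMb2 in H2-M, which exchanges peptides, and H2-Oa with H2-Ob form H2-O, an inhibitor of H2-M known mainly from B cells. Ciita is the transactivator of class II genes. In fat, B cells, macrophages and dendritic cells are the known presenters, and adipocytes have also been described as able to present antigen.

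Ciita does not bind DNA itself but joins factors on a conserved promoter arrangement of X and Y boxes. The stretches below are shown because they are what most of these genes have in common in sequence. They are RefSeq sequences of GRCm38.p6, 77 bases each, 5′ to 3′ on the gene's strand, with the Y letters TGATTGG and, where present, the X letters AACNNATG in capitals. Both sets of letters were chosen after the promoters had been read.
H2-Aa, chr17:34287852-34287928, minus strand: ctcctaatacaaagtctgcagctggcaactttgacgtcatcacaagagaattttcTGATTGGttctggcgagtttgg
H2-Eb1, chr17:34305751-34305827, plus strand: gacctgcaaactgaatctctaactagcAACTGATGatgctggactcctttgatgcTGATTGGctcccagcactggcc
H2-DMb1, chr17:34153073-34153149, plus strand: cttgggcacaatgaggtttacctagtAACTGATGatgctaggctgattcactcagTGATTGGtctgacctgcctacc
H2-DMb2, chr17:34145102-34145178, plus strand: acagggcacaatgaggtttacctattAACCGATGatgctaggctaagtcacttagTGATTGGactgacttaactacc
H2-Oa, chr17:34092279-34092355, plus strand: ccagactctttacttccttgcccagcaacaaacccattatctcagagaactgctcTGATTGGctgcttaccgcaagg
H2-Ob, chr17:34238791-34238867, plus strand: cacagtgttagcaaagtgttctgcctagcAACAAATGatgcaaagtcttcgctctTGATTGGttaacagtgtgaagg

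Each stretch lies upstream of a start site used in the RefSeq promoter table, with the Y letters 45 to 92 bases before that site. For H2-DMb2 the site lies inside the annotated gene (34143229 to 34151553), so its stretch is not upstream of the gene's outermost start. Among windows from 250 bases before to 50 bases after a start, searched on both strands, 6 of 8 windows of the listed genes held the Y letters, against 7.82% of 32851 windows. The X letters were in 4 of 8 windows, against 8.86%. Both on 1 strand, X before Y with 10 to 40 bases between them, occurred in the windows of H2-Eb1, H2-DMb1, H2-DMb2 and H2-Ob, with 20, 21, 21 and 18 bases between, and in 18 windows in all (0.0548%). Another of these 18 belonged to H2-Eb2, a neighbouring class II gene outside the list. The pair of windows of H2-DMa held neither set of letters. No window was matched for H2-Ab1, Cd74 and Ciita. The H2-DMb1 and H2-DMb2 stretches had the same base at 65 of 77 positions (84.4%). A match is a description of letters and not a measured binding site.

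Of the listed genes, 8 lie on chromosome 17 between 34092379 (start of H2-Oa) and 34316674 (end of H2-Eb1), Ciita lies on chromosome 16 at 10480014 to 10531064, and Cd74 on chromosome 18 (GRCm38.p6). H2-DMb1 and H2-DMb2 are neighbours and alike in the stretches above. The split of reads between them was not tested and is uncertain.

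The libraries differed in several ways before any listed gene was considered. The names of the deposited matrices carry the genotype opposite to the labels for both libraries, and Lexis has no row, so the labels were not checked and the libraries are called labelled WT and labelled KO. After filtering, 3503 nuclei labelled WT were kept at a median of 1194 UMIs (6638015 in all), and 2852 labelled KO at a median of 3876.5 UMIs (15627028 in all). Of the 5000 barcodes per library, 12 were in both, 10 of them among the kept nuclei. Cell classes were named from marker genes, with the listed genes left out of the clustering, and B-like nuclei numbered 1146 labelled WT and 32 labelled KO. The library labelled WT also held 641 T/NK-like nuclei, 93 Timd4 macrophage-like nuclei and an unnamed cluster of 146 nuclei led by Ccl21a, a lymphoid stroma chemokine. The library labelled KO held 286 macrophage-like nuclei marked by St18, against 6. Within a class the libraries mostly fell into separate clusters. The resident macrophage-like nuclei were cluster 10 labelled WT and mainly cluster 3 (521 nuclei) labelled KO. The adipocyte-like nuclei were cluster 4 against clusters 2 and 6, and the B-like nuclei cluster 0 against mainly cluster 22 (29 nuclei). With 1 library per genotype, genotype, preparation and cluster cannot be told apart. No test was made. The intervals given are at 95% and cover counting error alone.

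B-like nuclei of the library labelled WT carried the highest level of each of the 10 listed genes among classes with at least 30 nuclei. The 6 St18 macrophage-like nuclei labelled WT, too few to rank, summed to 55550 CPM, mostly from 1 nucleus. The summed B-like level labelled WT was 16520 CPM (16300 to 16750), and the B-like nuclei held 55.8% of the 36775 UMIs of the listed genes. Of all genes with at least 50 counts, 12.6% were highest in B-like nuclei among the 8 named classes compared. Among the named classes, dendritic-like nuclei followed at 9222 CPM (8889 to 9565). Resident macrophage-like nuclei came next at 4895 CPM (4683 to 5115), then Timd4 macrophage-like nuclei at 4310 CPM (3970 to 4670). Unnamed nuclei with both B and T markers (8634 CPM) and unnamed dividing nuclei (5962 CPM) lay between the dendritic-like and resident levels. The T/NK-like level of 2268 CPM (2167 to 2373) and the endothelial-like level of 2164 CPM (1965 to 2378) did not differ beyond counting error. The lowest levels were those of ASPC-like nuclei (adipogenic stem and precursor cells), 1087 CPM (1014 to 1164), and adipocyte-like nuclei, 1001 CPM (955.9 to 1048), whose intervals overlapped.

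In the library labelled KO the order was different. The St18 macrophage-like nuclei were highest at 12910 CPM (12680 to 13140). Among the named classes, resident macrophage-like nuclei followed at 7261 CPM (7133 to 7392) and B-like nuclei at 5154 CPM (4603 to 5754). The 34 unnamed dividing nuclei stood above the resident level, at 8266 CPM (7823 to 8729). The St18 and resident macrophage-like nuclei held 41.1% and 40.5% of the library's 29958 UMIs of the listed genes. Of the 7 listed genes with enough counts, 7 were highest in St18 macrophage-like nuclei (9.06% of all genes were) and 0 in B-like nuclei (17.9% of all genes). Endothelial-like nuclei stood at 1077 CPM (952.5 to 1214) and T/NK-like nuclei at 697.7 CPM (571.8 to 843.1). Mural-like, ASPC-like and myocyte-like nuclei lay at 421.3, 375.3 and 322.2 CPM, with overlapping intervals between neighbours. Adipocyte-like nuclei were lowest at 231.1 CPM (221.1 to 241.5).

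**Figure D1:**
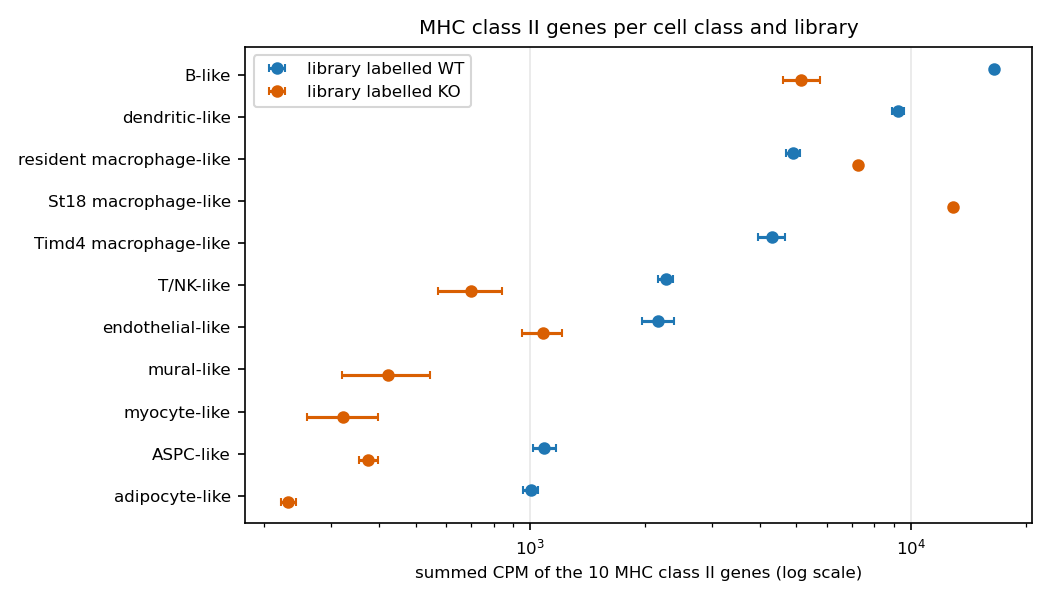
Summed CPM of the 10 MHC class II genes on a log axis, per cell class with at least 30 nuclei, for the library labelled WT (blue) and the library labelled KO (orange); bars are 95% Poisson intervals. B-like nuclei lead in the library labelled WT (16520 CPM) and St18 macrophage-like nuclei in the library labelled KO (12910 CPM).

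Among the I-A and I-E chains, H2-Aa stood at 3144 CPM in B-like, 2017 in dendritic-like and 1069 in resident macrophage-like nuclei of the library labelled WT. Labelled KO, H2-Aa stood at 796.7 CPM in B-like, 1462 in resident and 2373 in St18 macrophage-like nuclei. H2-Ab1 and H2-Eb1 put these classes in the same order in both libraries. H2-Ab1 was at 2632, 1535 and 948.7 CPM in B-like, dendritic-like and resident macrophage-like nuclei labelled WT, and at 764.2, 1366 and 2512 CPM in B-like, resident and St18 macrophage-like nuclei labelled KO. H2-Eb1 was at 2297, 1761 and 769.7 CPM in the first library and at 601.6, 1478 and 2526 CPM in the second. B-like nuclei were thus the high class in the library labelled WT and the low one of these 3 in the library labelled KO.

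Cd74, the invariant chain, followed the chains it accompanies. It stood at 5892 CPM (5758 to 6029) in B-like, 3182 CPM in dendritic-like and 1736 CPM in resident macrophage-like nuclei labelled WT. Labelled KO, Cd74 stood at 1789 CPM (1470 to 2156) in B-like, 2541 CPM in resident and 4632 CPM in St18 macrophage-like nuclei. Ciita, the transactivator, was at 637.2, 261.7 and 122.6 CPM in B-like, dendritic-like and resident macrophage-like nuclei labelled WT. Its B-like level labelled KO, 292.7 CPM (173.5 to 462.6, from 18 UMIs), did not differ beyond counting error from the St18 macrophage-like level of 333.0 CPM or the resident level of 210.0 CPM. In the adipocyte-like nuclei Ciita was at 19.25 CPM (35 UMIs) and 2.43 CPM (21 UMIs).

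The H2-M chains split. H2-DMa was at 216.7 CPM in B-like, 108.5 in dendritic-like and 63.7 in resident macrophage-like nuclei labelled WT. It was at 81.3 CPM (5 UMIs) in B-like, 65.2 in resident and 184.3 in St18 macrophage-like nuclei labelled KO. H2-DMb1 was at 222.3 CPM in B-like and 78.5 CPM in resident macrophage-like nuclei labelled WT, and at 292.7 CPM, 134.6 CPM and 303.7 CPM in B-like, resident and St18 macrophage-like nuclei labelled KO. H2-DMb2 was at 381.8 CPM in B-like but 27.0 CPM in resident macrophage-like nuclei labelled WT. Labelled KO, H2-DMb2 was at 146.3 CPM (9 UMIs) in B-like, 1.79 CPM (3 UMIs) in resident and 20.9 CPM (20 UMIs) in St18 macrophage-like nuclei. H2-DMb2 levels were thus higher in B-like than in macrophage-like nuclei in both libraries, while the H2-DMb1 intervals of B-like and St18 macrophage-like nuclei labelled KO overlapped.

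H2-Ob showed the same restriction, and H2-Oa did in the library labelled WT. H2-Ob stood at 899.0 CPM in B-like, 130.8 in dendritic-like and 78.5 in resident macrophage-like nuclei labelled WT. Labelled KO, H2-Ob was at 357.7 CPM (22 UMIs) in B-like, 2.99 CPM (5 UMIs) in resident and 14.7 CPM (14 UMIs) in St18 macrophage-like nuclei. H2-Oa stood at 199.8 CPM in B-like nuclei labelled WT, with 1 UMI in resident macrophage-like nuclei. Labelled KO, H2-Oa had 2 UMIs in B-like, 1 in resident and 6 in St18 macrophage-like nuclei, too few to rank those classes.

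**Figure D2:**
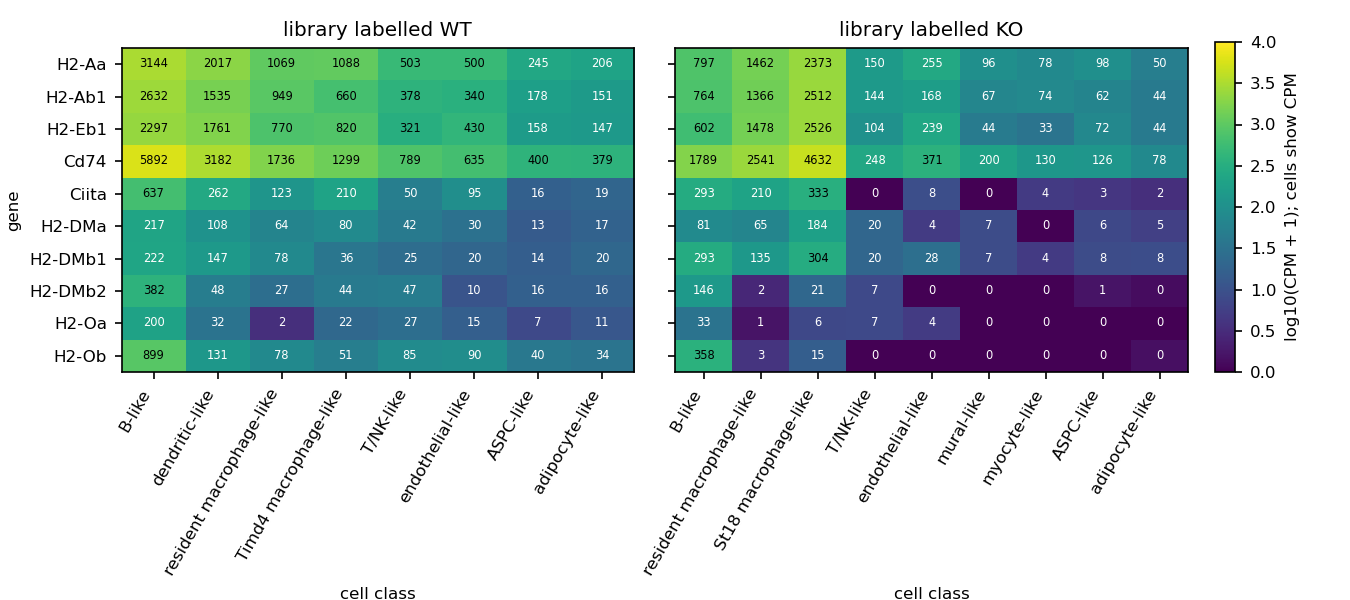
CPM of each MHC class II gene (rows) in the cell classes with at least 30 nuclei (columns), in the library labelled WT (left) and labelled KO (right); colour is log10(CPM + 1), and a printed 0 stands for any value under 0.5. H2-DMb2 and H2-Ob are bright in B-like nuclei of both libraries, and H2-Oa in those labelled WT (32.5 CPM from 2 UMIs labelled KO). These genes are near 0 in the resident macrophage-like nuclei of the library labelled KO, where H2-Aa, H2-Ab1, H2-Eb1 and Cd74 stay high.

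Ratios within a library place these differences on 1 scale. Among nuclei labelled WT the B-like level was 3.38 times (3.22 to 3.54) the resident macrophage-like level for the summed genes. It was 2.94 times for H2-Aa, 5.20 times for Ciita, 11.5 times (8.07 to 16.8) for H2-Ob and 14.2 times (7.84 to 28.6) for H2-DMb2. For the 7 genes other than H2-DMb2, H2-Oa and H2-Ob the ratio ran from 2.77 to 5.20. Among nuclei labelled KO the summed ratio was 0.710 (0.633 to 0.794). H2-DMb2 and H2-Ob nevertheless had B-like levels 81.5 times (20.3 to 468, 9 against 3 UMIs) and 120 times (44.2 to 404, 22 against 5 UMIs) the resident ones, so these genes kept the B-like side in both libraries while the chains did not. Dendritic-like nuclei labelled WT had 1.88 times (1.78 to 2.00) the resident macrophage-like level, a log2 ratio of 0.91 that became 0.12 with doublet-scored nuclei kept and 0.25 with nuclei assigned one by one from markers. The B-like to resident ratio labelled WT (log2 1.75) became 1.12 with doublet-scored nuclei kept. St18 macrophage-like nuclei labelled KO had 1.78 times (1.73 to 1.82), a log2 ratio of 0.83 that became 0.15 with 30 principal components in place of 20. Without the 15 of 286 nuclei that had the most UMIs of the listed genes, the St18 macrophage-like level was 7813 CPM. The resident macrophage-like level labelled KO without its own 27 such nuclei was 5723 CPM, against 7261 CPM for all.

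Counts within a gene pair do not depend on the class totals. H2-DMb2 made up 63.2% (59.6 to 66.7) of the H2-DMb1 and H2-DMb2 UMIs of B-like nuclei labelled WT, and 33.3% (16.5 to 54.0) of the 27 such UMIs labelled KO. The resident macrophage-like values were 25.6% (13.5 to 41.2) labelled WT and 1.32% (0.272 to 3.80) labelled KO. In St18 macrophage-like nuclei it made up 6.45% (3.98 to 9.79; 3.26% with nuclei assigned one by one from markers), and in dendritic-like nuclei labelled WT 24.6% (14.5 to 37.3). The share of H2-DMb2 was thus lower in resident macrophage-like than in B-like nuclei in each library by more than counting error. The split of reads between H2-DMb1 and H2-DMb2 was taken as given. In Timd4 macrophage-like nuclei labelled WT it was 54.5% (23.4 to 83.2) of 11 UMIs, which did not differ from the B-like share beyond counting error. H2-Oa made up 18.2% (16.2 to 20.3) of the H2-Oa and H2-Ob UMIs of B-like nuclei labelled WT, and 2 of 24 UMIs labelled KO (8.33%, 1.03 to 27.0).

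The H2-Ob share of the H2-Ob and Cd74 UMIs was 13.2% (12.5 to 14.0) in B-like nuclei labelled WT and 16.7% (10.8 to 24.1) in B-like nuclei labelled KO. Those intervals overlap. It was 4.32% in resident macrophage-like nuclei labelled WT against 0.118% (0.0382 to 0.274) labelled KO, and 8.25% in adipocyte-like nuclei labelled WT against 0.593% labelled KO. In every class outside the B-like nuclei shown here for both libraries the share was higher in the library labelled WT, the library with 1146 B-like nuclei, except that in T/NK-like nuclei the intervals overlap.

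**Figure D3:**
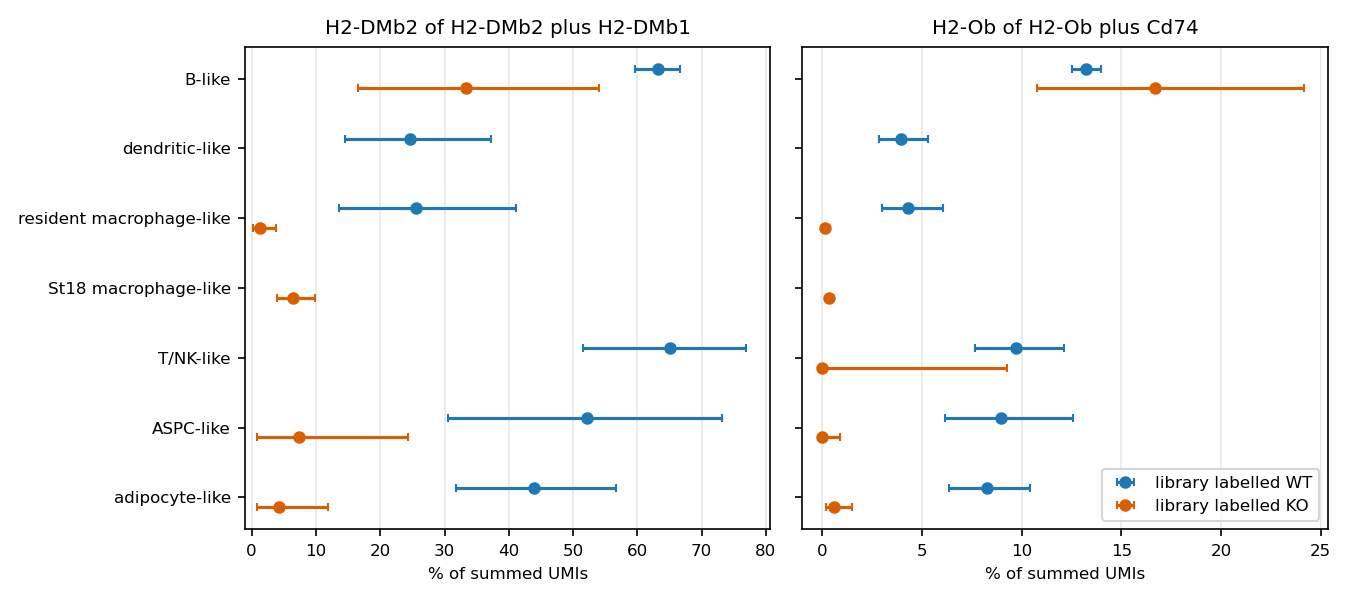
Share of H2-DMb2 among H2-DMb1 and H2-DMb2 UMIs (left) and of H2-Ob among H2-Ob and Cd74 UMIs (right), in percent, per class, for the library labelled WT (blue) and labelled KO (orange); bars are 95% Clopper-Pearson intervals. B-like nuclei have 63.2% and 13.2% in the library labelled WT, and resident macrophage-like nuclei of the library labelled KO 1.32% and 0.118%.

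In droplets, RNA from other nuclei also gives UMIs, and the classes of the library labelled WT carried B markers. Cd79a, a B-cell receptor component, had 1826 UMIs in B-like, 109 in adipocyte-like and 44 in resident macrophage-like nuclei labelled WT. Among nuclei labelled KO it had 30 in B-like, 2 in adipocyte-like and 2 in resident macrophage-like nuclei. All 13 B markers had UMIs in the adipocyte-like nuclei labelled WT, at a summed 856.8 CPM, against 144.6 CPM and 11 of 13 labelled KO (Fcmr and Blk at 0). The 13 macrophage markers were at 358.0 and 379.4 CPM there.

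The proportion of H2-Ob to Cd79a was alike in several classes of the library labelled WT. It made up 37.9% (36.2 to 39.7) of the H2-Ob and Cd79a UMIs in B-like nuclei, 37.2% in T/NK-like, 36.3% in adipocyte-like, 42.1% in resident macrophage-like and 44.1% in dendritic-like nuclei, and the intervals of the other 4 classes all contained the B-like value. Ciita did not: its share with Cd79a was 30.2% (28.5 to 32.0) in B-like and 24.3% (17.6 to 32.2) in adipocyte-like nuclei, but 53.2% (42.6 to 63.6) in resident macrophage-like and 61.2% (52.4 to 69.5) in dendritic-like nuclei. In the library labelled KO, Ciita made up 99.4% in resident and 98.5% in St18 macrophage-like nuclei. The H2-Ob share was lower, 24.6% (14.8 to 36.9), in the unnamed nuclei led by Ccl21a. In the 4 classes other than B-like the H2-Ob UMIs did not differ from the B-like proportion beyond counting error, while the Ciita UMIs of resident macrophage-like and dendritic-like nuclei labelled WT came in excess of it.

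Read as a percentage of the B-like level, the 10 genes ranged from 3.02% to 9.15% (median 6.07%) in adipocyte-like nuclei labelled WT, where the 6 B markers with enough counts ranged from 2.82% to 4.10% (median 3.59%). In ASPC-like nuclei the medians were 6.30% and 3.80%, in T/NK-like nuclei 13.4% and 7.89%, and in endothelial-like nuclei 11.8% and 8.46%, with overlapping ranges in each. In resident macrophage-like nuclei the medians stood further apart at 29.4% and 7.36%, and in dendritic-like nuclei at 52.0% and 12.0%. The ranges overlapped there too. In resident macrophage-like nuclei H2-Oa (1.23%), H2-DMb2 (7.06%) and H2-Ob (8.73%) lay below the highest B marker (9.15%), and the other 7 genes lay above it. In adipocyte-like nuclei H2-Aa, at 6.56% (5.88 to 7.29), and Cd74, at 6.44% (5.95 to 6.96), were above every B marker. The same reading in the library labelled KO, against the St18 macrophage-like level and 4 macrophage markers with enough counts, differed by class. Medians of the 7 listed genes with enough counts and of the markers were 1.74% and 2.62% in adipocyte-like, 2.71% and 3.63% in ASPC-like and 8.01% and 11.5% in endothelial-like nuclei, but 5.71% and 3.96% in T/NK-like nuclei, with overlapping ranges in each. In B-like nuclei they were 38.6% and 10.2%, and in resident macrophage-like nuclei 54.9% and 170.2%. In adipocyte-like nuclei labelled KO H2-Aa was at 2.11% and Cd74 at 1.68%, beside Lyz2 at 2.47%, Csf1r at 2.77%, Adgre1 at 1.41% and Mertk at 87.0%. How much of any level is free RNA was not tested.

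**Figure D4:**
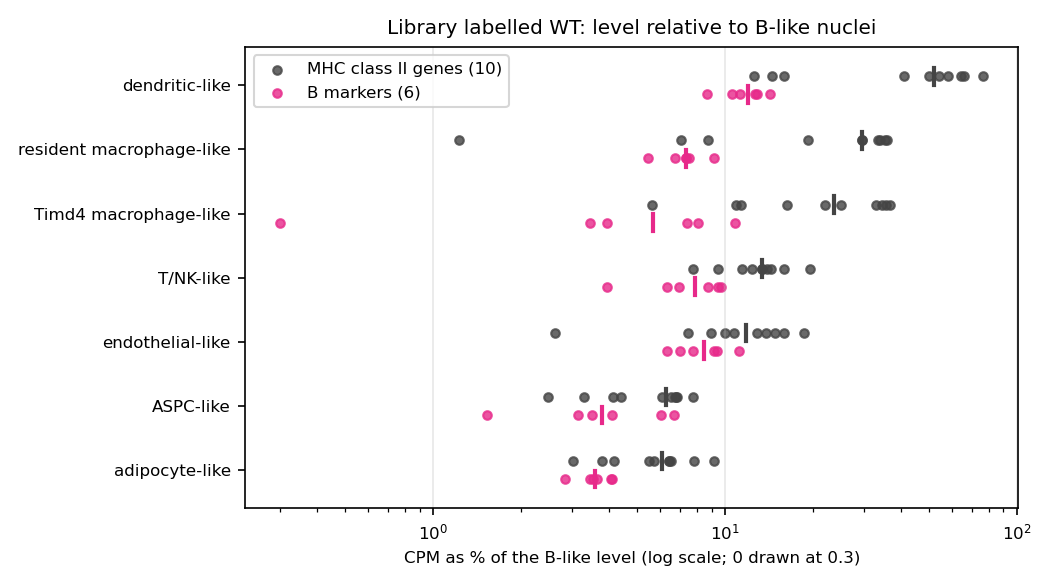
Level of each MHC class II gene (grey, 10) and each B marker (pink, 6) as a percentage of its B-like level on a log axis, per class of the library labelled WT; vertical ticks are medians, and a value of 0 is drawn at 0.3. The medians of both sets are 6.07% and 3.59% in adipocyte-like nuclei, and 52.0% and 12.0% in dendritic-like nuclei.

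Between the libraries, the listed genes were lower in the library labelled KO in B-like, adipocyte-like, ASPC-like and endothelial-like nuclei when summed, and higher in resident macrophage-like nuclei. The resident difference was within counting error with doublet-scored nuclei kept (7506 CPM labelled WT and 7229 CPM labelled KO, a ratio of 0.963, 0.927 to 1.00), and H2-Ob and H2-DMb2 were lower there and H2-DMa level within counting error. The summed ratio, labelled KO over labelled WT, was 0.312 (0.278 to 0.349) in B-like, 0.231 (0.216 to 0.246) in adipocyte-like, 0.345 (0.316 to 0.378) in ASPC-like, 0.498 (0.426 to 0.581) in endothelial-like and 1.48 (1.42 to 1.56) in resident macrophage-like nuclei. The median log2 ratio of the listed genes with at least 50 counts and that of all such genes were -1.57 and -0.22 in B-like, -1.96 and -0.02 in adipocyte-like, -1.42 and 0.14 in ASPC-like, -0.91 and 0.21 in endothelial-like, and 0.55 and 0.12 in resident macrophage-like nuclei.

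In B-like nuclei 9 of 10 genes were at most 0.5 times as high in the library labelled KO, where 26.2% of all genes were, and 0 were at least 2 times as high (16.0% of all genes). These counts use plain totals. H2-Aa had a ratio of 0.253 (0.187 to 0.336) and Cd74 of 0.303 (0.249 to 0.366). H2-DMb1 was the exception at 1.32 (0.769 to 2.12). Cd79a was lower in these 32 nuclei as well, at 487.8 against 1471 CPM, while the 13 B markers summed to 12880 against 15420 CPM. The B-like nuclei labelled KO were the deeper ones, with a median of 1839.5 against 964.5 UMIs, and median UMIs of the listed genes per nucleus were 9 against 16. With nuclei assigned one by one from markers the log2 ratio of the summed genes was -1.08, against -1.68 by clusters.

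In resident macrophage-like nuclei 0 of 7 genes with enough counts were at least 2 times as high labelled KO (27.2% of all genes). By the opposite rule, 0 were at most 0.5 times as high (12.7%). Both counts use plain totals. TMM scaling, a shift of 0.16 in this class, took H2-Eb1 (log2 ratio 0.94) past 2 times. H2-Eb1 had the highest ratio among the chains at 1.92 (1.71 to 2.17), against 1.37 (1.24 to 1.52) for H2-Aa and 1.44 (1.29 to 1.61) for H2-Ab1. Cd74 had 1.46 (1.35 to 1.59) and Ciita 1.71 (1.27 to 2.35). The interval for H2-DMa, 0.662 to 1.64, held equal levels. H2-Ob ran the other way at 0.0381 (0.0116 to 0.0986, 32 against 5 UMIs), as did H2-DMb2 at 0.0666 (0.0119 to 0.252, 11 against 3 UMIs), beside Cd79a at 44 against 2 UMIs. The summed value depended on the treatment of doublets. When nuclei scored as doublets were kept, the class labelled WT included 1 nucleus from the dendritic-like cluster with 554 UMIs of the listed genes and 1 from the St18 cluster with 507, against 1997 in the 223 nuclei of the class as first formed.

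In adipocyte-like nuclei 8 of 8 genes with enough counts were at most 0.5 times as high in the library labelled KO (16.4% of all genes; 26.2% were at least 2 times as high). H2-Aa had 206.2 and 50.1 CPM, a ratio of 0.243 (0.211 to 0.280), and Cd74 379.4 and 77.7 CPM, a ratio of 0.205 (0.184 to 0.228). H2-Ob had the lowest ratio of these 8, 0.0136 (0.00359 to 0.0366, 62 against 4 UMIs), and H2-Oa had 20 against 0 UMIs, at least 31.7-fold lower with the 0 set at 3 counts. H2-DMb1 had the mildest ratio, 0.387 (0.256 to 0.594). Among nuclei with no UMI of a B or macrophage marker, a choice made after the data were seen, the level was 364.8 CPM in 58 nuclei labelled WT and 255.5 CPM in 95 nuclei labelled KO, a ratio of 0.701 (0.520 to 0.950).

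In ASPC-like nuclei the 4 genes with enough counts, H2-Aa, H2-Ab1, H2-Eb1 and Cd74, were all at most 0.5 times as high in the library labelled KO (8.57% of all genes; 25.8% at least 2 times), at ratios from 0.313 to 0.453. In endothelial-like nuclei H2-Ab1 alone of these 4 was (0.493, 0.327 to 0.735), against 15.0% of all genes, and 0 were at least 2 times as high (31.3%). H2-Ob had 30 against 0 UMIs in ASPC-like and 18 against 0 in endothelial-like nuclei, at least 43.5-fold and 7.51-fold lower with the 0 set at 3 counts. The 13 B markers were at 706.1 and 63.4 CPM in ASPC-like nuclei and at 1334 and 123.7 CPM in endothelial-like nuclei. In the endothelial-like nuclei labelled KO 10 of the 13 were at 0, Cd79a among them. Among nuclei with no UMI of a B or macrophage marker the ratio of the summed genes was 0.538 (0.407 to 0.723) in ASPC-like nuclei and 0.885 (0.504 to 1.61, 19 against 42 UMIs) in endothelial-like nuclei, so the endothelial-like difference was then within counting error. With nuclei assigned one by one from markers, the log2 ratio of the summed genes in ASPC-like nuclei went from -1.53 to -2.16, and the log2 ratio of H2-Ab1 in endothelial-like nuclei turned from -1.02 to 0.09.

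**Figure D5:**
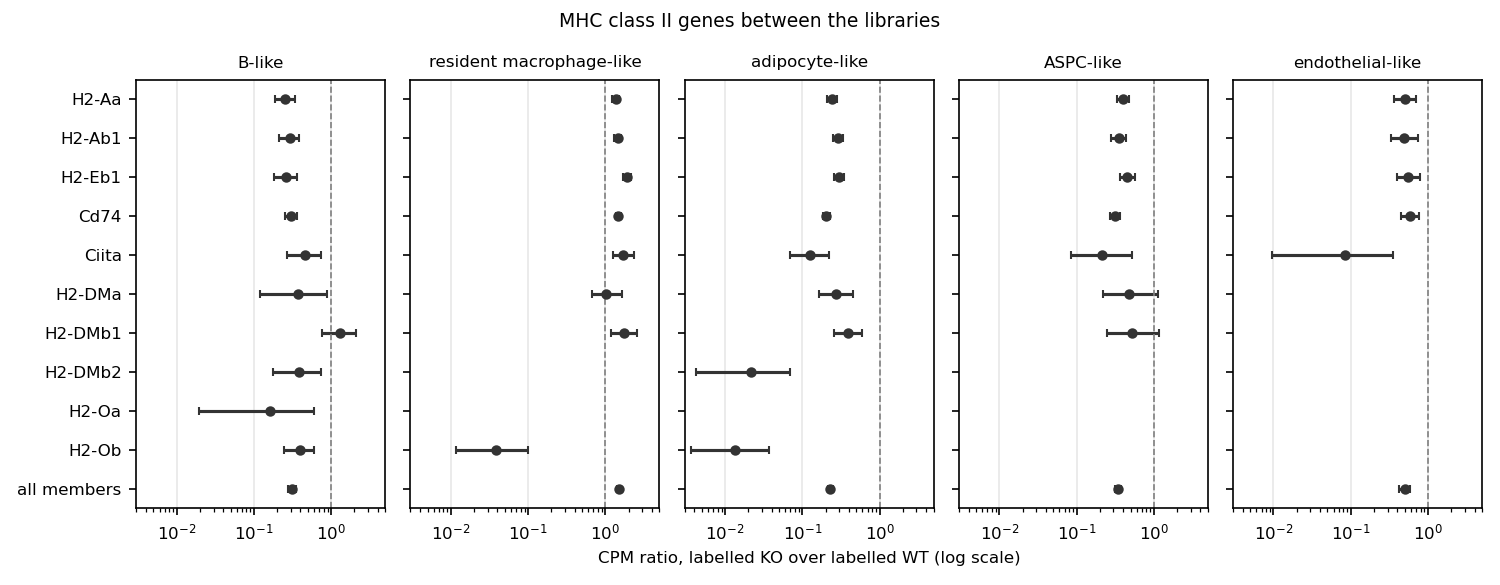
Ratio of CPM, labelled KO over labelled WT, on a log axis for each MHC class II gene and their sum in 5 cell classes, for genes with at least 20 UMIs over both libraries and at least 1 in each; bars are exact conditional binomial 95% intervals and the dashed line marks equal levels. The sum lies left of the line in 4 classes and right of it, at 1.48, in resident macrophage-like nuclei.

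Ratios between these libraries also ran with intronic length. In resident macrophage-like nuclei the median log2 ratio was -0.86 for genes with at most 3000 intronic bases and 1.54 for those with more than 100000. Most listed genes fall in the bins of 3000 to 10000 and 10000 to 30000 bases, whose medians were -0.51 and -0.15 in resident macrophage-like, -0.64 and -0.39 in B-like and -0.56 and -0.18 in adipocyte-like nuclei. Relative to its own bin, the log2 ratio of the summed genes was 0.98 in resident macrophage-like, -1.13 in B-like and -1.66 in adipocyte-like nuclei, against 0.57, -1.68 and -2.12 with plain totals. In endothelial-like nuclei it was -0.39, against -1.01. Single genes crossed the 2-fold rule by this reading. H2-Ab1, H2-Eb1, Cd74 and H2-DMb1 came to over 2 times as high labelled KO in resident macrophage-like nuclei. H2-DMa, H2-DMb2 and H2-Ob in B-like nuclei were no longer at most 0.5 times. The same held for H2-DMb1 in adipocyte-like, H2-Eb1 in ASPC-like and H2-Ab1 in endothelial-like nuclei. Shares of all genes were not counted by this reading.

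Single nuclei differed in how much of the set they carried. Thinned to 500 UMIs each, 98.9% (98.1 to 99.4) of B-like nuclei labelled WT had a UMI of a listed gene, against 84.4% (67.2 to 94.7) labelled KO. Resident macrophage-like nuclei had 68.2% (61.6 to 74.2) and 82.2% (78.7 to 85.4), and adipocyte-like nuclei 35.3% (30.6 to 40.2) and 13.5% (11.4 to 16.0). Mouse T cells are known to lack class II expression, and the T/NK-like nuclei had 63.0% (59.2 to 66.8) and 33.8% (22.8 to 46.3). Their median depths were 1037 and 2185 UMIs, against 1444 and 2733.5 UMIs in resident macrophage-like nuclei. The T/NK-like class was mainly cluster 1 labelled WT (603 nuclei, with Lck and Cd8a among its top genes). Labelled KO it was mainly cluster 17 (65 nuclei, with Gzma and Klra8 among its top genes). The adipocyte-like shares were below those of T/NK-like nuclei, but adipocyte-like nuclei were deeper, at medians of 3557 and 7852 UMIs, and thinning removed more from them. Unthinned, they had 4.564 and 2.235 UMIs of the listed genes per nucleus, against 2.919 and 1.574 in T/NK-like nuclei. The thinned shares thus cannot decide on expression in adipocyte-like nuclei, and none is read from them. The resident macrophage-like share labelled WT did not exceed the T/NK-like one beyond counting error. Its unthinned level was 8.955 UMIs per nucleus. Unthinned shares, labelled WT then labelled KO, were 99.9% and 100.0% in B-like, 92.8% and 97.9% in resident macrophage-like, 84.5% and 76.4% in adipocyte-like and 85.8% and 75.0% in T/NK-like nuclei. At least 4 different listed genes were seen at 500 UMIs in 64.6% (61.7 to 67.3) of B-like nuclei labelled WT and in 21.9% (9.28 to 40.0) labelled KO. The share was 27.1% in dendritic-like nuclei labelled WT, 26.9% in St18 macrophage-like nuclei labelled KO, 13.5% and 19.7% in resident macrophage-like and 0.251% and 0.112% in adipocyte-like nuclei.

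In some classes a few nuclei held much of the signal. The 5% of nuclei with the most UMIs of the listed genes held 15.2% of them in B-like nuclei labelled WT, but 44.9% in St18 macrophage-like nuclei labelled KO and 45.9% in dendritic-like nuclei labelled WT. Resident macrophage-like values were 26.0% labelled WT and 28.1% labelled KO. The 15 such St18 nuclei had 183 to 903 UMIs each, and their macrophage markers summed to 21110 CPM against 5130 CPM in the other 271, with dendritic markers at 370.9 against 543.3 CPM. In dendritic-like nuclei labelled WT 6 of 118 held 74 to 554 UMIs each, and the other 112 stood at 5729 CPM, against 9222 CPM for all. Cut in the same way, the other 211 resident macrophage-like nuclei labelled WT stood at 4036 CPM, against 4895 CPM for all. In the library labelled WT, 1 of the 6 St18 macrophage-like nuclei held 507 of their 522 UMIs, which was 26.5% of all its UMIs.

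The St18 macrophage-like nuclei also carried dendritic markers, with 7 of 10 detected at a summed 527.7 CPM, against 223.8 CPM in resident macrophage-like nuclei labelled KO and 1493 CPM in dendritic-like nuclei labelled WT. Siglech, Ccr7 and Fscn1 were at 0. With 30 principal components in place of 20 they divided into 84 nuclei named as before at 8092 CPM, 9 in the resident class and 193 in a cluster led by Gpr141 at 16030 CPM. The level above the resident one thus sat mainly in the 193. That cluster also took in 58 nuclei labelled WT, while the dendritic-like nuclei labelled WT went from 118 to 68 and the St18 macrophage-like ones from 6 to 0.

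The genes around class II were read from lists by role. Among the class II regulators, 1 of 10 measured in B-like nuclei was at least 2 times as high in the library labelled KO (Irf4) and 3 at most 0.5 times (Nfya, Nfyb and Irf8), beside 16.0% and 26.2% of all genes. Irf8, an interferon regulatory factor of B and dendritic cells, was at 574.3 and 178.9 CPM there. In resident macrophage-like nuclei 2 of 10 were higher by this rule and 2 lower (27.2% and 12.7% of all genes). Spi1 (PU.1), a myeloid transcription factor, was at 85.8 and 217.2 CPM, a ratio of 2.53 (1.79 to 3.69), and Irf8 at 205.9 and 83.8 CPM, a ratio of 0.407 (0.308 to 0.540). In adipocyte-like nuclei 3 of 12 were higher and 5 lower (26.2% and 16.4% of all genes). The list's median log2 ratio was 0.00 in B-like, -0.19 in resident macrophage-like and -0.78 in adipocyte-like nuclei, and that of antigen processing genes was -0.75, -0.56 and -0.63.

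Among genes of antigen processing, 1 of 9 was higher and 4 lower in B-like nuclei, 1 of 10 higher and 3 lower in resident macrophage-like nuclei, and 0 of 10 higher and 4 lower in adipocyte-like nuclei. The shares of all genes higher and lower were 16.0% and 26.2%, 27.2% and 12.7%, and 26.2% and 16.4% in these classes. The higher gene in both immune classes was March1, a ubiquitin ligase that removes class II molecules from the surface. It was at 432.6 and 1463 CPM in B-like nuclei, a ratio of 3.38 (2.67 to 4.24), and at 196.1 and 932.3 CPM in resident macrophage-like nuclei, a ratio of 4.75 (3.80 to 6.03). Intronic length was not considered for March1 or the other genes of these lists. The median log2 ratio of genes with more than 100000 intronic bases was 1.095 in B-like and 1.54 in resident macrophage-like nuclei. Ctsb, a lysosomal protease, ran the other way in resident macrophage-like nuclei at 2145 and 1297 CPM. Cst3, a cathepsin inhibitor, did not differ beyond counting error there (ratio 1.02, 0.906 to 1.15). Ctss, the protease that trims the invariant chain, was at 932.9 CPM in St18 macrophage-like nuclei, its highest class in the library labelled KO.

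Of the co-stimulatory genes, Cd86 was higher in both immune classes, at 47.5 and 162.6 CPM in B-like nuclei and at 51.5 and 220.8 CPM in resident macrophage-like nuclei (ratio 4.29, 2.76 to 7.01). By the same rule 1 of 3 measured was higher and 2 lower in B-like nuclei, and 2 of 4 higher and 0 lower in resident macrophage-like nuclei, beside 16.0% and 26.2% of all genes in the first class and 27.2% and 12.7% in the second. Of interferon gamma signalling genes, which act upstream of Ciita, 1 of 5 was higher and 0 lower in B-like nuclei, and 2 of 5 higher and 0 lower in resident macrophage-like nuclei, with Jak1 at 142.2 and 330.3 CPM. Lists of 3 to 5 measured genes are too short to set against those shares.

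The median of the MHC class I list was lower in the library labelled KO in the same classes as that of the class II genes, and in resident macrophage-like nuclei as well. None of 13 genes was at least 2 times as high in the library labelled KO in B-like, resident macrophage-like, adipocyte-like or ASPC-like nuclei, where 16.0%, 27.2%, 26.2% and 25.8% of all genes were, and 5, 4, 6 and 4 of 13 were at most 0.5 times, beside 26.2%, 12.7%, 16.4% and 8.57% of all genes. The list's median log2 ratio was -0.83 in B-like, -0.69 in adipocyte-like, -0.74 in ASPC-like and -0.96 in endothelial-like nuclei. Class I values were not read relative to intronic length. For genes with at most 3000 intronic bases the medians were -0.80 in B-like, -0.88 in adipocyte-like and -0.60 in ASPC-like nuclei. They were -0.85 in endothelial-like and -0.86 in resident macrophage-like nuclei. H2-K1, a class I heavy chain, had ratios of 0.504 in B-like, 0.614 in resident macrophage-like and 0.618 in adipocyte-like nuclei, and B2m, the light chain, 0.641, 0.787 and 0.724. In resident macrophage-like nuclei the median log2 ratio of the class I list was -0.48, beside 0.12 over all genes and 0.55 over the listed class II genes, with plain totals. In each library 10 of 13 class I genes were highest in T/NK-like nuclei, as were 19.3% of all genes labelled WT and 15.4% labelled KO, and 0 listed class II genes were. H2-Eb2, the neighbouring class II gene, was at 65.3 CPM in B-like nuclei labelled WT and had 1 UMI in those labelled KO.

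Over the 21 class and library points with at least 30 nuclei, the genes outside the list whose log2(CPM + 10) ran most like that of the summed genes were Ly86, Btk, Fgd2, Ctss, Pld4, Milr1, Unc93b1, Ncf1, Irf5 and Cybb, at Pearson r from 0.949 to 0.911 among 10980 genes. The listed genes themselves ran from 0.997 (Cd74) to 0.725 (H2-DMb2), 0.664 (H2-Ob) and 0.638 (H2-Oa). Each listed gene is part of the sum, so its r is partly set in advance, most for genes with many counts such as Cd74. The points share libraries, and depth differed between these libraries, so r is a description. Ly86, a partner of a B-cell and myeloid receptor, was at 546.1 and 471.5 CPM in B-like nuclei and at 232.9 and 400.9 CPM in resident macrophage-like nuclei. It followed the class II genes more closely than 4 of the 10 listed genes did, H2-DMb1 (0.922) being the fourth.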

How the data were processed

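Single-nucleus RNA-seq (10x Genomics 3′ v3.1) was analysed in 1 library per genotype. The authors deposited UMI counts for each gene in each barcode, from Cell Ranger 6.1.1 per the file headers. The submitters' processing notes name mm10 and Seurat 4. Whether intronic reads were counted, and any removal of free RNA, was not given in the sources used here. Barcodes with at least 500 genes and at most 5% mitochondrial UMIs were kept. Scrublet marked 92 nuclei labelled KO and 0 labelled WT, so the 4% highest-scoring nuclei labelled WT (146) were removed. Clustering used scanpy 1.11.5 and leidenalg 0.10.2 with 2000 variable genes without the listed and pathway genes, 20 principal components, 20 neighbours and resolution 1, which gave 23 clusters. Names required at least 3 passing markers. Rebuilt names may differ from the study's.

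Summed counts have exact Poisson, shares Clopper-Pearson and ratios conditional binomial 95% intervals (scipy 1.17.1), for counting error only. A count of 0 was set at 3. Counts and medians over genes between libraries used genes with at least 50 summed counts; ratios of single listed genes below that are given with their UMIs. The ratio code was tested on simulated data. TMM factors came from edgeR 4.0.16 in R 4.3.3. All 10 listed genes are named, with up to 4 genes of the most counts per pathway list and class, and the 10 genes most alike in pattern. Irf4, Nfya, Nfyb and H2-Eb2 were named as parts of a small count. The members, markers and lists were chosen with earlier results of these data known. Intronic lengths came from an annotation of an earlier build, matched by gene ID. No replicate exists, so no test was made.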

Additional observations from a re-analysis of the deposited data

Results flagged for a closer look

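The log2 ratio of the summed genes, labelled KO over labelled WT, was 0.57 in resident macrophage-like nuclei and -1.68 in B-like, -2.12 in adipocyte-like, -1.53 in ASPC-like and -1.01 in endothelial-like nuclei. The classes went opposite ways with 1 library per genotype, but with doublet-scored nuclei kept the resident value was -0.05, a ratio of 0.963 (0.927 to 1.00) that reaches equal levels within counting error. Of the 3497 UMIs labelled WT, 554 and 507 then came from 1 reassigned nucleus each. The difference between them was not tested.

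Signal also appeared in nuclei outside the comparisons. In the library labelled WT, 226 nuclei with both B and T markers had 8634 CPM, and the 146 nuclei led by Ccl21a had 1776 CPM. Barcodes with fewer than 500 genes had 4481 CPM in the library labelled WT (447 barcodes) and 3246 CPM in the library labelled KO (1448 barcodes), above the adipocyte-like levels of 1001 and 231.1 CPM.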

How the results depend on the processing

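No paired analysis was possible because there was 1 library per genotype and the labels give no replicate numbers; leaving out a replicate was not possible either. Values are log2 ratios of the summed genes, labelled KO over labelled WT, unless stated. With doublet-scored nuclei kept, the resident macrophage-like value turned to -0.05 (within counting error), H2-Aa there to -0.19 and Cd74 to -0.13, as nuclei of other clusters entered the class; adipocyte-like became -2.44, endothelial-like -0.66, B-like over resident labelled WT 1.12 and dendritic-like over resident 0.12. With nuclei assigned one by one, H2-Ab1 in endothelial-like nuclei turned to 0.09 and the cause was not tested; B-like became -1.08, resident 0.89, adipocyte-like -1.63, ASPC-like -2.16, endothelial-like -0.44, B-like over resident labelled WT 1.43, St18 over resident 0.32, dendritic-like over resident 0.25 and the H2-DMb2 share of St18 macrophage-like nuclei 3.26%. TMM scaling, which shifted every gene by -0.43 in B-like, 0.16 in resident and 0.22 in adipocyte-like nuclei, gave -2.11, 0.73 and -1.90, with St18 over resident 0.64, B-like over resident labelled KO -1.07 and dendritic-like over resident 1.05. Totals without mitochondrial genes and Malat1 (shifts of -0.09 to -0.29) gave 0.33 in resident, -2.37 in adipocyte-like and -1.82 in ASPC-like nuclei, B-like over resident labelled WT 1.61 and dendritic-like over resident 1.11. At least 1000 genes gave 0.90 in resident and -1.38 in ASPC-like nuclei, and 2.10 and 1.36 for B-like and dendritic-like over resident. Relative to intronic bins, B-like was -1.13, resident 0.98, adipocyte-like -1.66, ASPC-like -1.23 and endothelial-like -0.39. With the listed genes in the clustering, B-like over resident labelled WT was 1.67 and dendritic-like over resident 0.57; with 30 principal components the latter was 0.37 and St18 over resident 0.15 (0.82 with the split cluster joined). Chosen after seeing the data, nuclei without B marker UMIs gave 1.03 in resident, and nuclei without B or macrophage marker UMIs -0.51 in adipocyte-like, -0.89 in ASPC-like and -0.18 in endothelial-like nuclei; joining the 3 macrophage types gave 0.73. A clustering resolution of 0.5 moved none of the 39 single-gene or 9 summed values by more than counting error.

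Shares of nuclei with a UMI moved with depth. At 1000 UMIs and unthinned they were 99.8% and 99.9% in B-like nuclei labelled WT (99.4% at 500 UMIs with doublet-scored nuclei), 96.3% and 100.0% in those labelled KO, 86.4% and 92.8% in resident macrophage-like nuclei labelled WT, 89.9% and 97.9% in those labelled KO, 90.0% and 95.1% in St18 macrophage-like, 50.5% and 84.5% in adipocyte-like nuclei labelled WT and 21.2% and 76.4% in those labelled KO. With a minimum of 20 counts in place of 50, 1527 genes were at least 2 times as high and 2239 at most 0.5 times in B-like nuclei (778 and 1271 before), 1604 at most 0.5 times in resident (850), 1343 in ASPC-like (791), and 1269 and 890 in endothelial-like nuclei (604 and 289). TMM gave 437 genes at least 2 times as high in B-like and 1157 at most 0.5 times in adipocyte-like nuclei (1856). Without mitochondrial genes and Malat1 the genes at most 0.5 times numbered 1299 in resident, 2832 in adipocyte-like and 1515 in ASPC-like nuclei. The 32 B-like nuclei labelled KO limit every value for that class.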

Other observations

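Dividing nuclei were left unnamed because more dividing markers passed (6 of 6) than markers of any class (at most 5 of 13, macrophage). They stood at 5962 CPM of the listed genes labelled WT (104 nuclei) and 8266 CPM labelled KO (34 nuclei). In the library labelled KO, 2 of these 34 nuclei held 46.7% of the class's UMIs of the listed genes. Doublet-scored nuclei stood at 5171 CPM labelled WT and 2378 CPM labelled KO.

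Within a library the genes that ran most like the summed class II genes differed. Over the 11 points of the library labelled WT they were led by Fchsd2, Btk and March1 (r of 0.954, 0.953 and 0.935). Over the 10 points of the library labelled KO they were led by Themis2, Pirb and Pld4 (0.987, 0.975 and 0.972). Ly86 was among the first 10 in both.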
